A study of Mus musculus with 10 samples.

Results

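The expression of 10 melanocyte and pigment genes was followed in regenerating mouse digit tips with and without the limb enhancers of Lmx1b. The genes were Tyr, Tyrp1, Dct, Pmel, Mlana, Slc45a2, Oca2, Mitf, Sox10 and Kit, taken as a named list and matched by symbol in the deposited table of protein-coding genes. All 10 were found among the 21729 genes of that table and all 10 passed the filter on low counts, as did 20216 of the 55416 identifiers in all. RNA came from the blastema, the growth of dividing cells at the stump of an amputated digit. Wild type mice were compared with ΔLARM1/2 mice, in which the limb enhancers LARM1 and LARM2 of the dorsal patterning gene Lmx1b are deleted. Tissue was collected at 12 days post amputation (dpa), when the mice were 33 days old, or at 14 dpa, when they were 35 days old. At each time 2 libraries were wild type and 3 were mutant, and every library pooled 6 amputated central hindlimb digits. All groups shared a mixed CD1 and C57Bl/6 background. CD1 is an albino stock and C57Bl/6 a black strain, and the coat colour alleles of the pooled animals are not given in the sources used here, so such alleles and the Lmx1b genotype cannot be told apart as sources of a difference.

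Melanocytes are pigment cells that arise from the neural crest and settle in skin and in hair follicles, where they pass melanin to keratinocytes. MITF is the transcription factor that directs the lineage, SOX10 acts upstream of it, and the receptor tyrosine kinase KIT carries the survival and migration signal of KIT ligand. MITF switches on the genes of the melanosome, the organelle in which melanin is made: tyrosinase (Tyr) starts the synthesis, Dct and Tyrp1 carry out later steps, Pmel forms the fibrils on which melanin is laid down, Mlana takes part in melanosome maturation, and Slc45a2 and Oca2 are membrane proteins that set the conditions inside the organelle. Mitf is also expressed in osteoclasts, macrophages and mast cells, Sox10 in Schwann cells and glands, and Kit in mast cells.

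The promoters of the melanin-synthesis genes share a motif, and they are shown because these genes moved together in the data. RefSeq promoter windows on GRCm38.p6, running from 250 bases before to 50 bases after a start site, were given for 6 of the 10 genes (Tyr, Tyrp1, Dct, Oca2, Mitf and Kit). The 250 bases before the start are printed 5′ to 3′ on the gene's own strand for 4 of them. Capitals mark the E-box CATGTG, which MITF binds, in either orientation (CACATG on the reverse), together with the flanks of the longer GTCATGTGCT where it was present.
Tyr (chr7:87493513-87493762, minus strand): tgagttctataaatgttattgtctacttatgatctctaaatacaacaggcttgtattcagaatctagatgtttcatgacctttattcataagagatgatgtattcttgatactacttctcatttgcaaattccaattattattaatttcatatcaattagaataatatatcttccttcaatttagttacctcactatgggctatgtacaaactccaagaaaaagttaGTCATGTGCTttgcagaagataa
Tyrp1 (chr4:80833963-80834212, plus strand): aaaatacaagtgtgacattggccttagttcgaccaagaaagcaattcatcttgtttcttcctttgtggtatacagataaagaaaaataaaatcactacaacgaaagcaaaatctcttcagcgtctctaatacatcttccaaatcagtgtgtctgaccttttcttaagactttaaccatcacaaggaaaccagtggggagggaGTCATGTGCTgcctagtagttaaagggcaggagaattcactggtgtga
Dct (chr14:118052247-118052496, minus strand): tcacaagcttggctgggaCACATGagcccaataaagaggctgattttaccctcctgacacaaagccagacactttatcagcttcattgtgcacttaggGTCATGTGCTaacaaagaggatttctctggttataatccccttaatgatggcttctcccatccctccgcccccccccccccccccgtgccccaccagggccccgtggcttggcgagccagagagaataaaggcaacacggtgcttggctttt
Oca2 (chr7:56239509-56239758, plus strand): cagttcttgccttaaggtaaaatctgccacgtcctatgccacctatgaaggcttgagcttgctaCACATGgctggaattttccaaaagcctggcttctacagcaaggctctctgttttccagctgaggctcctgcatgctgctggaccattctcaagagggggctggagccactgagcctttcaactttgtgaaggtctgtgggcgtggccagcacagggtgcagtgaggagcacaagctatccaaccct
CATGTG was found in the windows of Tyr, Tyrp1, Dct and Oca2, and in 14.2% of all 32851 windows. TCATGTG, the core of the M-box of pigment genes and a longer form of the same match, was found in Tyr, Tyrp1 and Dct and in 3.77% of windows. GTCATGTGCT, the longest run around that core shared by the 3 windows and chosen after the sequences had been read, began at position -23 from the start site in Tyr, at -48 in Tyrp1 and at -152 in Dct, and it occurred in 61 of 32851 windows, or 0.186%. Dct held a second CATGTG on the other strand. CACGTG, another E-box that MITF binds, was in none of these windows and in 7.15% of all windows. Both strands were searched, and a match describes the letters only.

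Libraries held 69998104 to 101632364 expected counts. Levels are given in CPM, counts scaled to library size, and a floor of 3 counts lay between 0.0298 and 0.0438 CPM by library. Lmx1b ran from 1.69 to 2.94 CPM in wild type and from 0.0278 to 0.336 CPM in mutants. Mutant 14 dpa replicate 1 has a wild type genotype tag, but its title and description name it mutant and it was kept there; placed in wild type, it left 0 of the 10 genes called. Its summed CPM over the 7 melanosome genes was 35.1, against 0.97 to 1.24 in the 4 wild type libraries and 6.47 to 53.9 in the 6 mutants, which include it. These genes are the ones compared below, so their sum is no check of its genotype. The mutant range of Lmx1b given above includes this library, so lying within that range is no check either. The range does place its Lmx1b at 0.336 CPM or less, where the lowest wild type library had 1.69 CPM. Mutant 12 dpa replicate 3 stood apart from the other mutants in these genes, so values without it are given beside the main results that it moves.

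The 7 melanosome genes were higher in mutants and Mitf was lower. Over both days all 7 of Tyr, Tyrp1, Dct, Pmel, Mlana, Slc45a2 and Oca2 rose, Mitf fell, and Sox10 and Kit did not pass (edgeR's quasi-likelihood test, Benjamini-Hochberg adjusted over all tested genes). Over all 20216 tested genes 43.7% passed in this comparison, 21.5% higher and 22.2% lower. Tyr, Tyrp1, Mlana, Slc45a2 and Oca2 had at most 4 counts in any wild type library and passed the low-count filter through the mutants alone. A call or a separation of these genes could thus only be higher. The shares and the median over all genes are therefore no like measure for them. Of all genes called, 49.2% were higher, against 71.8% on the log2(TPM + 1) scale, where the median of all genes shifted to 0.14. All 8 directions were kept on that scale, but 6 of the 10 genes passed there, 5 of them higher. The median log2 fold change of the 7 was 6.53, or 5.51 with Tyr and Oca2 at their lower bounds, against 0.02 for all tested genes. The 6.53 is the fitted value of Slc45a2, which had 1 wild type count. Over all 10 genes the median was 4.94, and 4.13 without mutant 12 dpa replicate 3. At 12 dpa 4 of the 10 rose and 1 fell, where 7.18% of all genes rose and 9.34% fell. At 14 dpa 6 rose and 1 fell, where 16.1% rose and 17.2% fell. Without either wild type library of a day, Mitf was the single call of that day. In 6 of the 7 (not Slc45a2) all 6 mutant libraries lay above all 4 wild type libraries, which held for 13.8% of tested genes; in Mitf all lay below, which held for 15.9%. Within 12 dpa the same 6 genes were higher without overlap (25.7% of all genes) and Mitf lower (26% of all genes), and within 14 dpa all 7 were higher (30.8% of all genes) and Mitf and Kit lower (31.6%). In bulk tissue, more melanocytes and more RNA per melanocyte cannot be told apart.

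**Figure D1:**
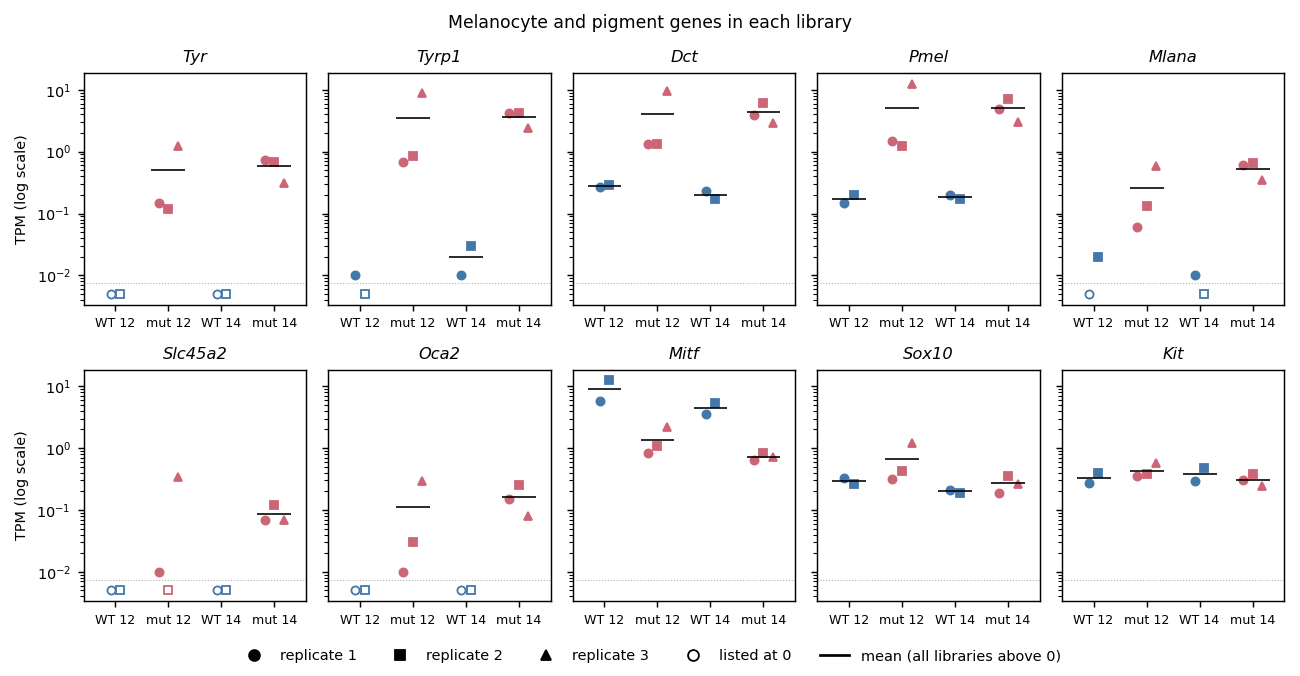
Each panel plots the TPM (transcript level per length, log axis) of 1 gene in each of the 10 libraries, by genotype and day (WT, wild type; mut, mutant; 12 and 14 dpa). Marker shapes give the replicate, open markers under the dotted line are libraries listed at 0, and bars are group means where every library is above 0. Of the 7 melanosome genes, 5 sit at or under 0.03 TPM in wild type while Dct and Pmel have a low level, Mitf is highest in wild type, and mutant 12 dpa replicate 3 is the highest 12 dpa mutant in every panel.

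Tyr (ENSMUSG00000004651), the rate-limiting enzyme of melanin synthesis, had 0 counts in all 4 wild type libraries. In the mutants it stood at 0.507, 0.569 and 5.09 CPM at 12 dpa and at 3.49, 3.91 and 1.67 CPM at 14 dpa. No wild type library overlapped with a mutant one. With 1325 counts in mutants against a floor of 3 counts over the wild type group, Tyr was at least 273-fold higher over both days (adjusted p = 0.00354), at least 104-fold at 12 dpa (adjusted p = 0.0347) and at least 173-fold at 14 dpa (adjusted p = 0.0167). Of the 544 mutant counts at 12 dpa, 455 came from replicate 3. Without that library the bounds were 218-fold over both days and 26.2-fold at 12 dpa (adjusted p = 0.00691). At 12 dpa it no longer passed without wild type 12 dpa replicate 1 or 2 (adjusted p = 0.119 and 0.144) or mutant 14 dpa replicate 1 or 2 (adjusted p = 0.0633 and 0.0519). At 14 dpa it no longer passed without wild type 14 dpa replicate 1 or 2 (adjusted p = 0.0718 and 0.0789) or mutant 14 dpa replicate 1 (adjusted p = 0.0505).

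Tyrp1 (ENSMUSG00000005994), a melanosomal enzyme related to tyrosinase, had 9 counts in all in wild type. Its wild type levels were 0.0136 and 0 CPM at 12 dpa and 0.0584 and 0.0413 CPM at 14 dpa. The mutants had 1.62, 1.5 and 14.8 CPM at 12 dpa and 11.6, 10.9 and 5.80 CPM at 14 dpa. Mutant replicate 3 at 12 dpa was thus 9.46-fold above the mean of the other two. Over both days Tyrp1 rose by a log2 fold change of 8.52 (SE 1.16, adjusted p = 0.00103), and it stood at 7.54 without mutant 12 dpa replicate 3 and at 9.75 without wild type 12 dpa replicate 1. At 14 dpa, where no mutant library stood apart, it rose by 7.56 (SE 1.46, adjusted p = 0.00789). At 12 dpa wild type held 1 count and the ratio was 907, with a 95% counting interval of 163 to 35900 that covers counting error only. Without mutant replicate 3 that ratio was 230, with an interval of 40.9 to 9110. The calls of a single day were lost without either wild type library of that day (adjusted p = 0.0621 to 0.111).

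Dct (ENSMUSG00000022129), dopachrome tautomerase, was the only enzyme of the 3 with a steady wild type level. It was at 0.749 and 0.762 CPM in wild type at 12 dpa and at 0.817 and 0.557 CPM at 14 dpa, 221 counts in all. The mutants had 2.96, 2.65 and 15.8 CPM at 12 dpa and 8.79, 13.5 and 7.01 CPM at 14 dpa. The lowest mutant library lay above the highest wild type library. Dct rose by 3.54 over both days (SE 0.61, adjusted p = 0.00248), by 3.24 at 12 dpa (SE 0.84, adjusted p = 0.0354) and by 3.84 at 14 dpa (SE 0.87, adjusted p = 0.0132). Without mutant 12 dpa replicate 3 it stood at 2.86 over both days and at 1.91 at 12 dpa, with adjusted p = 0.0133 at 12 dpa. Dct no longer passed at 12 dpa when wild type 12 dpa replicate 1 or 2 was left out (adjusted p = 0.158 and 0.179), wild type 14 dpa replicate 1 or 2 (0.0556 and 0.0557) or mutant 14 dpa replicate 1 (0.0522), nor at 14 dpa without either wild type 14 dpa library (0.0748 and 0.0969).

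Pmel (ENSMUSG00000025359), the fibril protein of the melanosome, followed the enzymes. Wild type libraries had 0.218 and 0.259 CPM at 12 dpa and 0.350 and 0.371 CPM at 14 dpa. Mutants had 2.32, 1.56 and 16.3 CPM at 12 dpa and 9.91, 13.3 and 6.83 CPM at 14 dpa. Again the groups did not overlap on either day. Pmel rose by 4.80 over both days (SE 0.80, adjusted p = 0.00226), and by 3.90 without mutant 12 dpa replicate 3. The 12 and 14 dpa values, 4.81 and 4.79, had SEs of 1.14 and 1.11, but the 12 dpa value was 3.04 without that library. Both calls were lost without either wild type library of the day (adjusted p = 0.0969 to 0.156).

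Mlana, Slc45a2 and Oca2 were sparse, and their values rest on few counts. Mlana (ENSMUSG00000024806) had 2 wild type and 155 mutant counts, a ratio of 47.9 over both days (95% counting interval 13.0 to 399, adjusted p = 0.00325). Without mutant 12 dpa replicate 3 the ratio was 45.5 over both days, and it was 8.84 at 12 dpa against 25.3 with it. Its mutant levels were 0.0338, 0.0905 and 0.381 CPM at 12 dpa and 0.495, 0.517 and 0.291 CPM at 14 dpa. The genotypes did not overlap on either day, but the 12 dpa difference did not pass (adjusted p = 0.0636). Oca2 (ENSMUSG00000030450) had 0 wild type and 221 mutant counts and was at least 45.6-fold higher (adjusted p = 0.00619), or 40.1-fold without mutant 12 dpa replicate 3, where the fitted log2 value went from 8.03 to 7.01. It too had its lowest mutant values, 0.0338 and 0.103 CPM, in replicates 1 and 2 at 12 dpa, and 12 dpa alone did not pass (adjusted p = 0.0659). The 14 dpa calls of Mlana and Oca2 were lost without either wild type 14 dpa library (adjusted p = 0.0512 to 0.105), and that of Oca2 also without mutant 14 dpa replicate 1 (adjusted p = 0.052). Slc45a2 (ENSMUSG00000022243) had 1 wild type and 172 mutant counts, a ratio of 106 (95% counting interval 18.8 to 4230, adjusted p = 0.0262). Without mutant 12 dpa replicate 3 the ratio was 67.6 (interval 11.8 to 2700) and the fitted log2 value 4.49 against 6.53, and its 14 dpa difference then passed (adjusted p = 0.00929). Its mutant levels were 0.0338, 0 and 0.918 CPM at 12 dpa and 0.260, 0.467 and 0.278 CPM at 14 dpa. It passed on neither day alone (adjusted p = 0.163 and 0.0802), and its call over both days was lost when any 1 of the 4 wild type libraries was left out (adjusted p = 0.0627 to 0.0908).

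**Figure D2:**
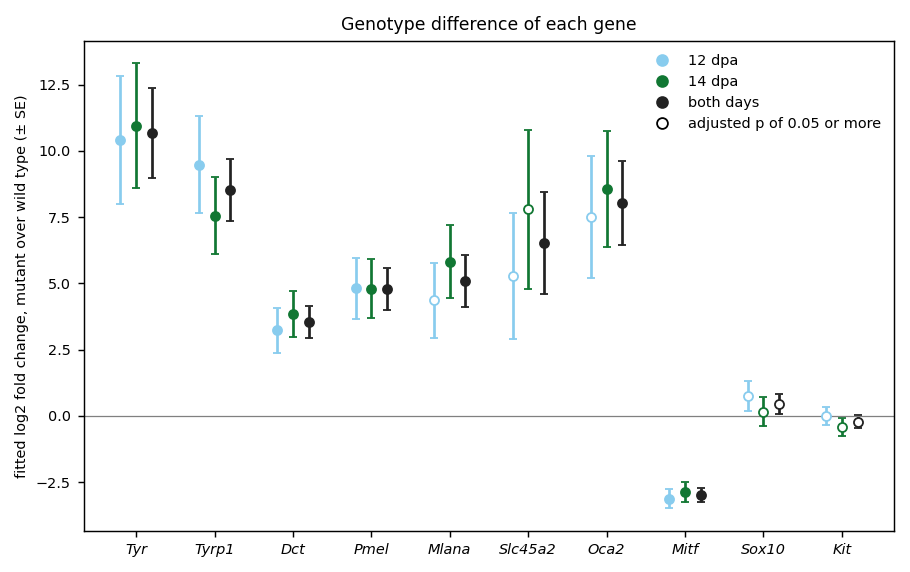
Points are fitted log2 fold changes of mutant over wild type for each gene at 12 dpa, 14 dpa and over both days, with bars of 1 SE, and open points did not pass an adjusted p of 0.05. The 7 melanosome genes lie above 0 in each comparison, Mitf lies near -3 and Sox10 and Kit lie around 0; fitted values of Tyr, Oca2 and Slc45a2 at 14 dpa, which have 0 wild type counts, depend on the prior count and are no bounds.

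The shares of Pmel, Dct, Tyrp1 and Tyr in the melanosome transcripts varied less between mutant libraries than the sum. Per length, on the TPM scale, Pmel made up 32.7% to 40.0% of the summed level of the 7 genes, Dct 26.4% to 36.3%, Tyrp1 18.4% to 29.0% and Tyr 3.25% to 5.04%. Mlana took 1.60% to 4.09%, Oca2 0.267% to 1.29% and Slc45a2 0% to 1.01%. The summed level in CPM was 7.51 and 6.47 in mutant 12 dpa replicates 1 and 2 and 53.9 in replicate 3, and 35.1, 43.4 and 22.2 at 14 dpa. The order of the median TPM over the 6 mutants was Pmel (3.98), Dct (3.40), Tyrp1 (3.33), Mitf (0.825), Tyr (0.50), Mlana (0.47), Kit (0.365), Sox10 (0.34), Oca2 (0.115) and Slc45a2 (0.07). No neighbours in this order differed by more than the larger of their SDs, which were 4.24, 3.24 and 3.07 TPM for the first 3. In wild type the order was led by Mitf at a median of 5.54 TPM, followed by Kit (0.34), Dct (0.25), Sox10 (0.235) and Pmel (0.185), with Tyrp1 and Mlana at 0.01 and 0.005 and the other 3 listed at 0. There Mitf stood above Kit, and Pmel above Tyrp1, by more than their SDs.

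**Figure D3:**
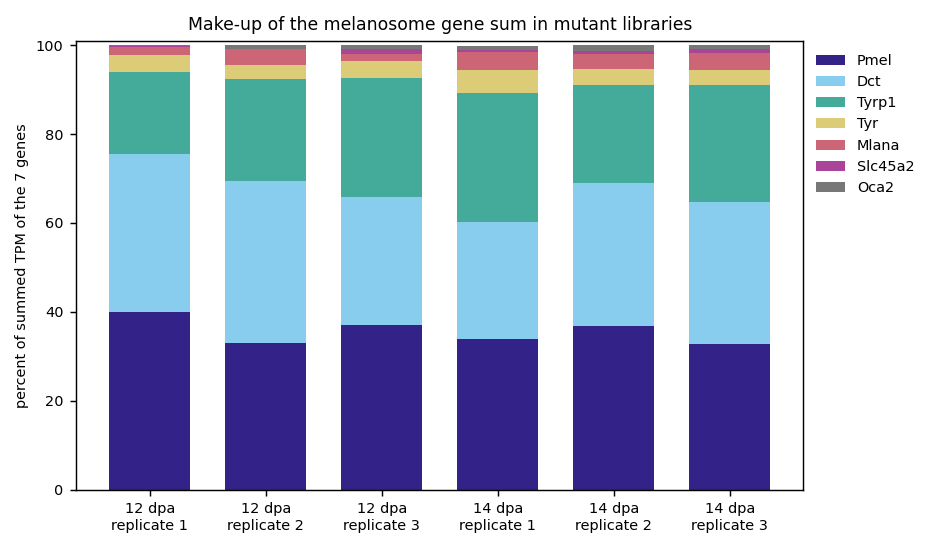
Stacked bars give the percent of the summed TPM of the 7 melanosome genes contributed by each gene in the 6 mutant libraries. Pmel, Dct and Tyrp1 make up most of each bar, with Pmel between 32.7% and 40.0%, in libraries with low and with high sums.

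Mitf (ENSMUSG00000035158), the regulator of the melanosome genes, went the other way. Wild type libraries had 28.0 and 58.6 CPM at 12 dpa and 25.0 and 30.2 CPM at 14 dpa. Mutants had 3.25, 4.41 and 7.26 CPM at 12 dpa and 3.36, 4.36 and 3.65 CPM at 14 dpa. The highest mutant library was thus below the lowest wild type library. Mitf fell by 2.99 on the log2 scale over both days (SE 0.26, adjusted p = 0.000133), by 3.12 at 12 dpa (SE 0.37, adjusted p = 0.00191) and by 2.86 at 14 dpa (SE 0.37, adjusted p = 0.00198). The gene has several promoters, 3 of them in the RefSeq windows, and the counts add up transcripts from all. Within the mutants Mitf was highest in replicate 3 at 12 dpa, the library with the highest melanosome sum.

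Sox10 and Kit did not pass in any comparison. Sox10 (ENSMUSG00000033006) had 1.13 and 0.762 CPM in wild type at 12 dpa and 1.01 and 0.65 CPM at 14 dpa. In mutants it was at 0.799, 1.12 and 2.85 CPM at 12 dpa and at 0.62, 1.27 and 0.847 CPM at 14 dpa, so the groups overlapped on both days and mutant 12 dpa replicate 3 was the highest library. Its log2 fold change over both days was 0.45 (SE 0.39, adjusted p = 0.37), and 0.08 without that library. Kit (ENSMUSG00000005672) had 1.89 and 1.86 CPM in wild type at 12 dpa and 2.80 and 2.94 CPM at 14 dpa. Mutants had 1.5, 1.34 and 2.80 CPM at 12 dpa and 2.04, 2.63 and 1.72 CPM at 14 dpa. The groups overlapped at 12 dpa, and at 14 dpa every mutant library was below both wild type libraries, as was the case for 31.6% of tested genes. Its log2 fold change was -0.21 over both days (SE 0.23, adjusted p = 0.487) and -0.43 at 14 dpa (SE 0.33, adjusted p = 0.336).

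None of the 10 genes passed the test between days in either genotype, and none passed in the difference of the genotype contrasts between days. In mutants 0.0346% of all tested genes differed between 12 and 14 dpa, 0.0148% higher and 0.0198% lower at 14 dpa, and 0% did in wild type or in the difference of the contrasts by edgeR (1654 and 1763 genes at an unadjusted p under 0.05; 77 and 48 genes by DESeq2). With all libraries, 0 of the 10 had an unadjusted p under 0.05 there. Without mutant 12 dpa replicate 3, 8 of the 10 did in mutants (not Mitf or Sox10) and 2 did in the difference of the contrasts, while 0 passed after adjustment, and the median log2 change of the 10 in mutants was 2.42 against 0.50 with it. The 14 dpa mutants were above mutant 12 dpa replicates 1 and 2 in all 7 melanosome genes, with means 3.48-fold (Dct) to 19.8-fold (Slc45a2) higher, but replicate 3 at 12 dpa was above the 14 dpa mean in each of them except Mlana. The fitted change from 12 to 14 dpa in mutants was 0.66 for Tyrp1 (SE 0.82), 0.57 for Pmel (SE 0.77) and 1.36 for Mlana (SE 0.78, adjusted p = 0.383). Without mutant 12 dpa replicate 3 these changes were 2.58 for Tyrp1 (adjusted p = 0.0635), 2.35 for Pmel (adjusted p = 0.0607) and 2.79 for Mlana (adjusted p = 0.234).

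Mutant 12 dpa replicate 3 was higher than the mean of the other 12 dpa mutants in all 10 genes. The fold was 9.47 for Tyr, 9.46 for Tyrp1, 8.40 for Pmel, 5.62 for Dct, 2.97 for Sox10, 1.97 for Kit and 1.90 for Mitf. Among the sparse genes it was 9.95 for Oca2, 6.12 for Mlana and 54.3 for Slc45a2, which had 3 and 0 counts in the other 12 dpa mutants. In the same library the osteoclast list summed to 1836 CPM, against 261 to 627 in the other 5 mutants, and the mast cell list to 18.7 CPM, against 3.28 to 8.22. Most of the mast cell sum was Hdc, histidine decarboxylase, at 9.70 CPM and Il1rl1, the IL-33 receptor, at 4.53 CPM. The mast cell proteases Cpa3, Cma1, Mcpt4 and Tpsb2 were at 0.548, 0.403, 0.593 and 0.47 CPM there, each under the highest mutant value. The protease Tpsab1 was highest in that library among the mutants, at 0.839 CPM. The Schwann cell list summed to 157.8 CPM there, within the 148.4 to 164.1 of the other mutants. Of the osteoclast list, Mmp9 was at 912 CPM there. Ctsk, the collagen-degrading protease of osteoclasts, was highest there at 486 CPM, and Acp5, the tartrate-resistant phosphatase, at 194 CPM. Car2 of that list was not, at 22.3 CPM within a mutant range of 18.0 to 60.5 CPM. The macrophage list summed to 107.4 CPM there, against 35.6 to 58.7 CPM in the other 5 mutants. Its markers Csf1r (56.0 CPM), Cd68 (20.8 CPM) and Itgam (15.9 CPM) were highest there, and its other markers were not. The part of osteoclasts, macrophages and mast cells in the Mitf and Kit values of that library was not tested.

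Over the 6 mutant libraries, with each day's mean removed, the 7 melanosome genes varied together. The Pearson correlation of each with their mean log2 CPM was 0.915 (Mlana) to 0.992 (Tyrp1 and Dct), and the mean contains each of them. Kit had 0.958 with the same mean, Mitf 0.89 and Sox10 0.871. The tested genes outside the list that followed the mean most closely were Golga3 (0.999), Msantd3 (0.997), Trip10 (0.997), Ank1 (0.992) and Ptgds (0.992). Of these, Ptgds, a prostaglandin D synthase, rose from 0.0143 to 0.572 CPM (log2 fold change 5.39, adjusted p = 0.00613). The closest to Mitf were Tgfbr2, Sptbn1, Synj1, Ace and Slc39a10 (0.993 to 0.999). The closest to Sox10 were Sept9, Cd300lb, Lrat, Plod3 and Slc4a2 (0.991 to 0.997), and to Kit Polr2m, Pdia5, Il11, Lrrc49 and Pus3 (0.995 to 0.999). These describe 6 libraries only: the 12 dpa spread in the melanosome mean was set by 1 library, and the closest genes were picked from all tested protein-coding genes.

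The other genes of the pathway are set beside all tested genes, of which 21.5% rose and 22.2% fell over both days, and shares near these are no result about a list. Of 36 further melanosome enzymes, structural and transport genes, 35 were tested, 8 rose, 4 fell and 23 did not pass (median log2 fold change 0.06). Values beside ± are SDs over 4 wild type and 6 mutant libraries. Trpm1, a cation channel of melanocytes, rose from 0.113 ± 0.0919 to 0.968 ± 0.634 CPM (log2 fold change 3.52, SE 0.68, adjusted p = 0.00333). Slc24a5, an ion exchanger of the melanosome pathway, went from 0.0688 ± 0.0633 to 0.779 ± 0.565 CPM (3.52, SE 0.93, adjusted p = 0.0148). Rab38, which sends enzymes to the melanosome, went from 22.4 ± 4.07 to 48.7 ± 7.10 CPM (adjusted p = 0.000348) and Rab27a, which carries melanosomes along actin and is used by other secretory cells, from 9.16 ± 0.56 to 15.2 ± 2.13 CPM (adjusted p = 0.00197). Dtnbp1, a subunit of a complex that sorts proteins to the organelle, rose by 0.69 (adjusted p = 0.00047). Slc7a11, the cystine transporter, fell by 1.58 on the log2 scale (adjusted p = 0.00169), the copper pump Atp7a by 0.45 (adjusted p = 0.00985) and Syngr1 by 0.93 (adjusted p = 0.0131). Gpr143 had too few counts to be tested, at 0.0176 ± 0.0209 and 0.05 ± 0.0367 CPM.

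Among 22 melanocyte regulators and receptors, 21 were tested, 6 rose, 5 fell and 10 did not pass (median -0.10), again beside 21.5% and 22.2% of all genes. Mc1r, the melanocortin receptor that sets pigment type, went from 0.0543 ± 0.0381 to 0.40 ± 0.271 CPM (log2 fold change 2.86, SE 0.76, adjusted p = 0.0139). Irf4, a factor that acts with MITF on Tyr and is also a lymphocyte gene, went from 0.124 ± 0.0683 to 0.404 ± 0.14 CPM (adjusted p = 0.00564). Erbb3, a neuregulin receptor also found in epithelium, rose by 0.82 (adjusted p = 0.000276), and Tfap2a, a factor of melanocytes and epidermis, by 0.50 (adjusted p = 0.00364). Ednrb, the endothelin receptor of melanocyte precursors and of vessels, fell from 7.92 ± 1.40 to 2.21 ± 0.501 CPM (adjusted p = 0.000222). Lef1, a Wnt effector, fell by 4.47 (adjusted p = 0.00023) and Fgfr1 by 0.78 (adjusted p = 0.00189). Pax3, which acts with SOX10 on Mitf, did not pass, at 0.14 ± 0.06 CPM in wild type and 0.22 ± 0.0751 CPM in mutants (adjusted p = 0.244).

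Of 18 genes for ligands that act on melanocytes and their modulators, 16 were tested, 1 rose, 7 fell and 8 did not pass (median -0.41), beside 21.5% and 22.2% of all genes. Kitl, the ligand of KIT, was at 11.5 ± 3.20 CPM in wild type and 8.57 ± 3.16 CPM in mutants (adjusted p = 0.153). At 14 dpa alone it fell by 0.998 on the log2 scale (adjusted p = 0.037), and at 12 dpa its log2 fold change was 0.16 (adjusted p = 0.765). Edn3, a ligand of EDNRB, was at 0.298 ± 0.102 and 0.529 ± 0.312 CPM (adjusted p = 0.126). Corin, a protease that limits agouti signalling in the dermal papilla, fell from 2.42 ± 1.17 to 0.296 ± 0.241 CPM (adjusted p = 0.000702), and Bmp4 from 12.1 ± 1.05 to 3.43 ± 0.942 CPM (adjusted p = 0.000341). Mgrn1, a ubiquitin ligase with a role in pigment type switching, fell by 0.42 (adjusted p = 0.00167), and Adam17, a sheddase, rose by 0.48 (adjusted p = 0.00103).

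Markers of other cell types were followed beside these genes, and their counts of calls stand against 21.5% of all genes higher and 22.2% lower. Of 10 basal keratinocyte markers 7 rose and 1 fell; their sum ran from 10420 to 13270 CPM in wild type and from 17900 to 22970 CPM in mutants, a 1.66-fold difference of means, while the melanosome sum differed 26.5-fold. Per 1000 CPM of keratinocyte markers the melanosome sum was 0.075 to 0.11 CPM in wild type and 0.282 to 2.66 CPM in mutants. Mutant 12 dpa replicate 3, with a melanosome sum of 53.9 CPM, is part of the 26.5-fold and gave the 2.66. In the other mutants the melanosome sums ran from 6.47 to 43.4 CPM and the ratios from 0.282 to 2.35 CPM. The part of keratinocytes in the melanosome difference was not tested. Of 12 blastema fibroblast markers 10 fell and 0 rose, with sums of 15430 to 29510 CPM in wild type and 2214 to 8023 CPM in mutants, and Mitf was lower in the same libraries; the part of these cells in the Mitf difference was not tested. Of 11 tested osteoclast markers 1 fell and 0 rose, and the sums overlapped (379.6 to 709.8 and 261.2 to 1836 CPM). Of 10 macrophage markers 6 fell and 0 rose, with sums of 69.1 to 88.5 CPM in wild type and 35.6 to 107.4 CPM in mutants. These sums overlapped through mutant 12 dpa replicate 3 alone, and the other mutants had 35.6 to 58.7 CPM. The part of macrophages in the Mitf difference was not tested. Of 9 tested mast cell markers 1 fell and 0 rose, with sums of 4.86 to 13.4 and 3.28 to 18.7 CPM. The 14 dpa wild type libraries, which had the highest wild type Kit, also had the highest wild type mast cell sums (10.8 and 13.4 CPM). The part of mast cells in the Kit values was not tested. Of 17 Schwann cell and nerve markers 4 rose and 2 fell, with sums of 132 to 151 and 148.4 to 164.1 CPM. Of 11 tested sweat gland and volar skin markers 2 rose, 3 fell and 6 did not pass. Their sum was lower in every mutant, at 523 to 716.6 against 936.2 to 1219 CPM. The largest part of that sum was 1 gene, Trps1, with means of 565.5 CPM in wild type and 371.7 CPM in mutants. Among the markers found, no list had one at 0 in every wild type or in every mutant library.

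**Figure D4:**
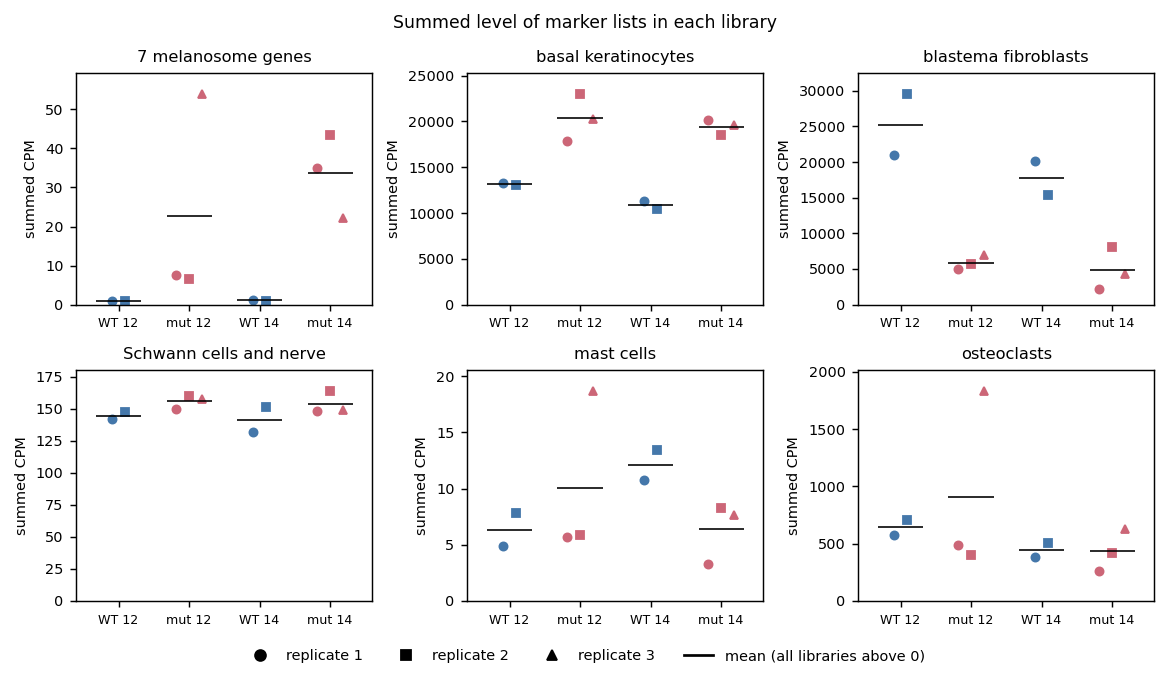
Each panel plots the summed CPM of a marker list in each of the 10 libraries, by genotype and day (WT, wild type; mut, mutant), with marker shapes for replicates and bars for group means. The melanosome sum is 0.97 to 1.24 CPM in wild type and 6.47 to 53.9 CPM in mutants, the keratinocyte and fibroblast sums separate the genotypes in opposite directions, and mutant 12 dpa replicate 3 is highest for osteoclasts and, through Hdc (9.70 CPM) and Il1rl1 (4.53 CPM), for the mast cell list.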

How the data were processed

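Each library is a stranded total RNA library. Per the file headers, the deposited expected counts have RSEM's column layout and are not normalized; 13.9% were not whole. The deposited TPM values are scaled by the authors for gene length and to a fixed total, and the series table equalled the single files (largest difference 0). FastQC, STAR 2.7.8a, RSEM 1.3.0 and the build GRCm39 are listed, with no role, per the submitters' processing notes, and the strand used in counting is not stated there. No GRCm39 genome was used, so gene coordinates are given only for RefSeq promoter windows on GRCm38.p6.

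Rounded expected counts entered edgeR 4.0.16, run in R 4.3.3 beside limma 3.58.1: filterByExpr (minimum count 10, total 15), TMM factors, 1 robust quasi-likelihood fit of all 10 libraries in 4 groups with no covariate, threshold 0.05. SE is the fold change over the root of F. CPM use TMM-scaled library sizes. Where wild type had 0 counts, the fold is a bound against a group floor of 3 counts. A wild type sum of 1 to 3 counts gives a ratio and its exact 95% interval. The fit was checked on simulated counts. Labels do not say that replicates were separate animals, so p-values cover the spread of these libraries alone, possibly technical. The 14 dpa wild type libraries are numbered in opposite order in titles and descriptions; titles were used. Precision is limited by 2 or 3 libraries a group and, for low genes, by counting.

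Groups came from titles. The members and lists were chosen with earlier results of these data known. All 10 members are named. Of each other list, up to 3 genes a direction with the smallest adjusted p over both days were eligible. Others are named where a cell type or ligand is discussed (Gpr143, Pax3, Kitl, Edn3, Mmp9, Ctsk, Acp5, Csf1r, Cd68, Itgam, the mast cell genes, and Slc24a5, Trpm1, Mc1r among the called genes, chosen after their values were seen). For likeness, the 5 closest tested protein-coding genes by Pearson correlation over the 6 mutants, with 0.5 added to counts, were named. Alternatives were other scaling, filters, tools (DESeq2 1.42.0, limma-voom, limma-trend on TPM), a replicate block, sex read from Xist and Y-linked counts, the tag of mutant 14 dpa replicate 1, fits of the compared groups only, and leaving out each library.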

Additional observations from a re-analysis of the deposited data

Results flagged for a closer look

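In 4 cases 1 library lay apart from the others of its genotype by Dixon's criterion on CPM, which chance meets in about 1 in 20 groups. Each genotype pools both days. Mitf was at 58.6 CPM in wild type 12 dpa replicate 2, the highest of the 4 wild type libraries. Mitf was at 7.26 CPM and Sox10 at 2.85 CPM in mutant 12 dpa replicate 3, each the highest of the 6 mutant libraries. Slc45a2 was at 0.0136 CPM, a single count, in wild type 12 dpa replicate 1 and at 0 in the other wild type libraries. Any single count against zeros meets the criterion, so the stated rate does not apply to Slc45a2.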

How the results depend on the processing

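Over both days the 7 melanosome genes and Mitf kept their direction in each of the alternatives in which they could be fitted (20 or 21 each), and Sox10 and Kit passed in none. Tyr, Tyrp1, Dct, Pmel and Mitf passed in 20 of 21; the exception was placing mutant 14 dpa replicate 1 in wild type, as its tag says, which left 0 of 10 genes and 0 of all genes called in the genotype contrasts over both days, at 12 dpa and at 14 dpa, with log2 fold changes over both days of 5.29 for Tyrp1 and -2.70 for Mitf (adjusted p = 0.145 and 0.0648). Mlana passed in 19 of 20 and Oca2 in 18 of 20. Slc45a2 passed in 10 of 20, and was lost with limma-voom (adjusted p = 0.0558). The strict filter (CPM of at least 1 in 2 libraries) left 5 of the 10 called over both days, because Mlana, Slc45a2 and Oca2 were not tested.

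Calls on single days were less stable. At 12 dpa, 5 of 10 genes were called, 8 with DESeq2, 1 with limma-voom, with log2(TPM + 1) or with only the groups compared, 2 without a low-count filter or with the replicate block, and 3 with sex as a covariate; leaving out 1 library gave 1 (either wild type 12 dpa library) to 7. At 14 dpa, 7 were called, 4 with log2(TPM + 1) and, leaving out 1 library, 1 (either wild type 14 dpa library) to 8. A group left with 1 library is assumed to vary like the others. Mitf alone passed in those fits with 1 call.

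Over all genes, the replicate block called 1927 at 12 dpa against 3339. Leaving out 1 library gave 769 to 3947 at 12 dpa, 2548 to 6517 of 6728 at 14 dpa, 0 to 3 for the difference between days, 1 to 24 in mutants and 0 to 4 in wild type. The difference of the contrasts had 0 calls, 48 with DESeq2 and 1 with log2(TPM + 1) or no filter. From 12 to 14 dpa mutants had 7 calls, 16 with upper quartile factors, 1505 with DESeq2, 313 and 337 with log2(TPM + 1) and log2(TPM + 0.1), 45 without a filter, 19 with the strict filter, 1 with the replicate block, 18 with sex and 2 with the tag. Wild type had 0, 77 with DESeq2, 3 and 1 on the TPM scales, 2 with sex and 8 with only the groups compared. The cause was not tested. Whether the replicate numbers pair the libraries was not settled. With group means removed, same-numbered libraries of different groups correlated at -0.108 to 0.0702, and 1 of 10 correlated best with its own number. In a group of 2 libraries such values mirror each other (0.0702 and -0.0702 for wild type 12 dpa with mutant 12 dpa replicate 1), so they cannot exclude pairing or a shared batch. Depth limits Tyr, Mlana, Slc45a2 and Oca2, whose wild type levels lie under 3 counts, and Tyrp1 at 12 dpa, where wild type held 1 count.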
